A study of Mus musculus with 6 samples.

Results

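Glutamate is the main excitatory transmitter of the brain, and the genes described here encode its receptors and the proteins that hold those receptors in place at the postsynaptic membrane. They are 40 mouse genes, chosen by name: the AMPA, kainate, NMDA and delta subunits of the ionotropic receptors, the metabotropic receptors, the scaffold families Dlg, Dlgap, Shank and Homer, and the subunits of calcium/calmodulin-dependent kinase II. Each probe set annotated to exactly 1 of these genes was taken. This gave 88 probe sets for 38 genes, of 45037 probe sets on the array. Grin1 and Shank2 were not analysed here, because the annotation used pairs no probe set with either of them alone.

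The samples were whole brains of mice heterozygous for a knockout of periphilin (Pphln1) and of wild-type littermates, with 3 brains per genotype and 1 Affymetrix array per brain. The heterozygous mice were male and 2 months old. The littermates are labelled C57BL/6; their age was taken as the same, and their sex is not stated separately. No other allele or treatment is named for either genotype. The sources used do not state how the gene was disrupted. Values are the authors' deposited linear intensities, scaled to a common level per array. Differences are heterozygous minus wild type on the scale log2(intensity + 16), which understates the change of dim probe sets.

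AMPA receptors carry most fast excitatory currents, kainate receptors modulate release and excitability, and NMDA receptors admit calcium when glutamate binding and depolarisation coincide. Metabotropic receptors act through G proteins on slower time scales. Dlg proteins bind receptor tails and, through Dlgap and Shank, join them to Homer, which also binds group I metabotropic receptors. Calcium entering through NMDA receptors activates kinase II, which phosphorylates AMPA receptors and is abundant in forebrain spines.

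In a whole brain, fewer cells of a type and less RNA per cell cannot be told apart. Neuronal markers were bright in every brain: the summed intensity of 10 pan-neuronal genes ranged from 32886 to 37422 in heterozygous and from 33082 to 33647 in wild-type brains. Of the other marker lists, the pituitary list differed most between single brains and summed to 21234 in wild type 1 and to 6709 in heterozygous 3, against 185 to 857 elsewhere. Pphln1 itself had a log2 difference of 0.08 (SE 0.11) at 1434822_at and of -0.36 (SE 0.18) at the dimmer 1435766_at, and neither passed the test (limma adjusted p = 0.969 and 0.956). At 1435766_at it measured 30.6, 44.4 and 36.6 in heterozygous and 63.2, 47.3 and 46.3 in wild-type brains, without overlap. Genotypes overlapped at the brighter 1434822_at. Of all probe sets tested, 10.2% did not overlap. Between arrays, log2 values correlated at 0.978 to 0.984.

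No glutamate receptor or scaffold gene differed between heterozygous and wild-type brains past the threshold. Of the 88 probe sets, 76 were bright enough to be tested, and they covered 36 of the 40 genes. None of the 76 passed an adjusted p of 0.05 by limma over all 27022 probe sets tested, where 4 passed, 0.0148% of them, and the lowest adjusted p among the 76 was 0.956. At an unadjusted p below 0.05 there were 6 of the 76, or 7.89%, against 4.83% of all probe sets. Of those 6, 1 was higher and 5 were lower in heterozygous brains. The background is 2.43% higher and 2.4% lower. The 6 stem from 5 genes, since 2 of them measure Dlgap1, and the difference from the background was not tested. The count was 2 without heterozygous 1 and 3 without wild type 2 or wild type 3.

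The intervals bound the differences on the scale log2(intensity + 16), not the fold of intensity itself, which is larger for dim probe sets. With each gene represented by its brightest tested probe set, the 95% confidence interval excluded a 1.5-fold change in either direction on that scale for 35 of 36 genes, each interval taken singly. Camk2a was the exception. With 1 in place of 16, closer to the fold of intensity, the number was 33. Among all 76 tested probe sets, on the scale with 16, the interval excluded a 1.5-fold change for 66. A 1.25-fold change was excluded in both directions for 14 genes, so smaller differences could not be resolved for most. Of the 36 genes, 16 were higher and 20 lower in sign, with a median log2 difference of -0.0095. Over the 13024 genes tested, 52% were higher in sign and the median was 0.0068. Among probe sets, 40 of the 76 were higher in sign, or 52.6%, against 52.3% of all tested. By brightest probe set, 3 of the 36 genes (Camk2a, Grin2b and Dlgap1) had an unadjusted limma p below 0.05, or 8.33%, against 4.38% of all genes.

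**Figure D1:**
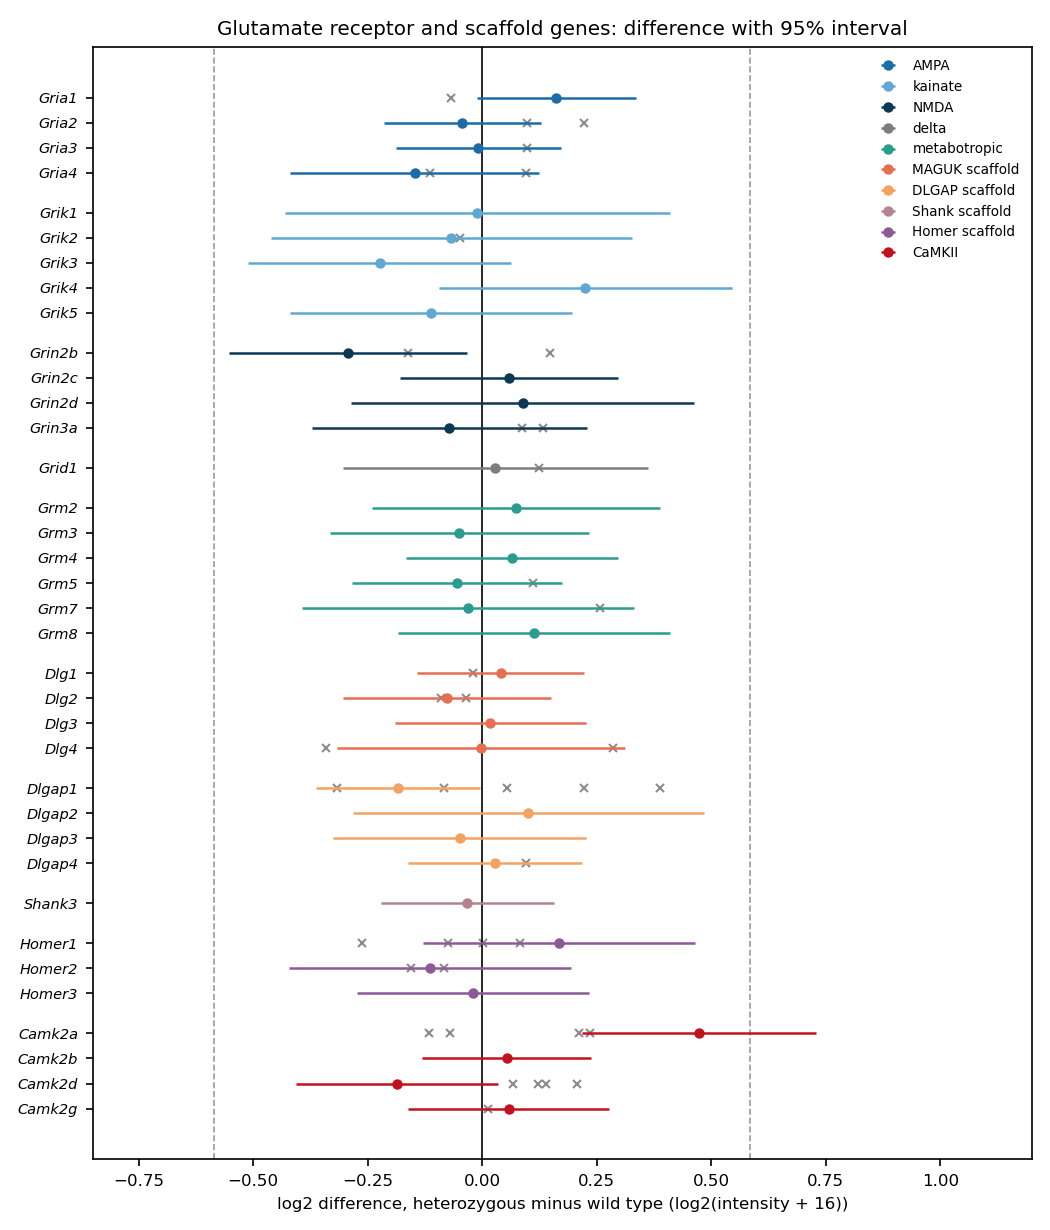
Log2 differences, heterozygous minus wild type, for the 36 measured genes. Circles are the brightest tested probe set of a gene with its 95% confidence interval (3 brains per genotype), coloured by family, crosses are the gene's other tested probe sets, and dashed lines mark a 1.5-fold change on that log2(intensity + 16) scale. The interval of Camk2a alone reaches past a dashed line.

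The 4 AMPA receptor genes encode the subunits that assemble into the channel. Gria1 measured 1191, 1244 and 1140 in heterozygous brains 1 to 3 and 1060, 1030 and 1099 in wild-type brains 1 to 3. Each heterozygous brain was thus above each wild-type brain, by a log2 difference of 0.16 (SE 0.08, 95% interval -0.01 to 0.34, limma adjusted p = 0.956). Its other probe set, 1448972_at, lay at -0.07 (SE 0.16), with overlapping genotypes.

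Gria2, whose edited form makes the channel nearly impermeable to calcium, measured 1711, 1733 and 1680 in heterozygous and 1724, 1690 and 1871 in wild-type brains. The genotypes overlapped, and the 95% interval of the log2 difference at 1434146_at ran from -0.22 to 0.13. The other tested Gria2 probe sets were higher in sign, at 0.10 (SE 0.08) and 0.22 (SE 0.17), also with overlap. Gria3 measured 795, 738 and 813 against 789, 760 and 811, the closest match among the AMPA genes, with a log2 difference of -0.0086 (SE 0.08). Its dimmer probe set, 1420563_at, lay at 0.10 (SE 0.11). Gria4 measured 824, 669 and 648 against 903, 673 and 804, so that the first brain of each genotype was the brightest and the genotypes overlapped (-0.15, SE 0.12). The median over the 4 genes was -0.03.

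The kainate receptor genes scattered more between brains than the AMPA genes. Their median spread between brains of 1 genotype was 0.22 (SD, log2) against 0.06 for the AMPA genes, 0.14 for all 36 genes and 0.15 for all genes tested. The Homer genes spread as much, at 0.23. The kainate genes were also dimmer, with mean signals of 67.8 to 310 against 748 to 1734 for the AMPA genes. The part of brightness in the spread was not tested. Grik3, a low-affinity subunit, measured 184, 253 and 246 in heterozygous and 271, 287 and 242 in wild-type brains (-0.22, SE 0.13, 95% interval -0.51 to 0.06). Grik4, a high-affinity subunit, went the other way, at 75.9, 70.3 and 77.6 against 55.2, 71.8 and 58.4 (0.22, SE 0.15). Wild type 3 lay within the heterozygous range for Grik3, as did wild type 2 for Grik4.

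Grik5, the other high-affinity subunit, measured 264, 378 and 263 against 321, 296 and 354 (-0.11, SE 0.14). Its highest value belonged to a heterozygous brain. Grik1 measured 55.5, 97.8 and 68.0 against 71.6, 61.1 and 87.3 (-0.01, SE 0.19), and the tested probe sets of Grik2 had differences of -0.07 (SE 0.18) and -0.05 (SE 0.19). The kainate median was -0.07, but 0.04 without heterozygous 1 and -0.20 without heterozygous 2.

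Of the NMDA receptor genes, 4 were tested. Grin2b, the subunit that predominates early in development and stays in the forebrain, measured 166.5, 185 and 214.3 in heterozygous and 213.9, 245.6 and 242.7 in wild-type brains at 1442370_at. Heterozygous 3 and wild type 1 nearly coincided, and the other brains were apart. The log2 difference was -0.29 (SE 0.12, 95% interval -0.55 to -0.03, unadjusted limma p = 0.0302, adjusted p = 0.956, exact permutation p = 0.2). With 3 brains against 3, the exact test cannot go below 0.1. The other tested Grin2b probe sets lay at -0.16 (SE 0.16) and, at the dim 1422223_at, at 0.15 (SE 0.27). Over all 3 probe sets the mean was -0.10.

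The other NMDA genes had smaller differences. Grin2c, the subunit of cerebellar granule cells, measured 167, 150.1 and 164 against 151, 150.5 and 158 (0.06, SE 0.11). Grin2d measured 128, 87.2 and 82.8 against 106, 80.6 and 87.5 (0.09, SE 0.17), with the first brain of each genotype highest. Grin3a, a subunit that lowers calcium entry, measured 135, 178 and 156 against 155, 191 and 149 (-0.07, SE 0.14). Its other tested probe sets lay at 0.13 (SE 0.14) and 0.09 (SE 0.16). Grin2a was too dim at its probe set to be tested, at 18.0, 20.2 and 9.95 against 0.875, 20.1 and 7.33. Those values describe 1421616_at and set no level for the gene. Grid1, a delta receptor subunit that binds cerebellins across the synapse, measured 199, 189 and 131 against 151, 179 and 171 (0.03, SE 0.15).

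By brightest probe set, the 6 metabotropic receptor genes had log2 differences between -0.06 and 0.11. This was a smaller range than that of any other of the 5 groups of receptor, scaffold and kinase genes. Their median was 0.02, and it took either sign with an array left out, between -0.05 without heterozygous 3 and 0.07 without heterozygous 1. Grm8, a presynaptic group III receptor, measured 78.8, 80.9 and 77.7 in heterozygous and 65.5, 71.6 and 79.3 in wild-type brains (0.11, SE 0.13). Grm4, another group III receptor, measured 239, 232 and 278 against 248, 236 and 229 (0.06, SE 0.11). Grm2, a presynaptic group II receptor, lay at 0.07 (SE 0.14).

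For Grm3, Grm5 and Grm7 the spread lay between brains of 1 genotype rather than between genotypes. Grm3, a group II receptor also found on astrocytes, measured 394, 504 and 485 in heterozygous and 398, 537 and 501 in wild-type brains. Grm5, the group I receptor that binds Homer, measured 658, 809 and 830 against 740, 850 and 788. Grm7 measured 316, 442 and 461 against 322, 469 and 456. At these brightest probe sets all 3 were lowest in heterozygous 1 and wild type 1. Their log2 differences were -0.05 (SE 0.13), -0.06 (SE 0.10) and -0.03 (SE 0.16). The other tested Grm5 probe set lay at 0.11 (SE 0.13). The dim second one of Grm7, 1458861_at, lay at 0.26 (SE 0.21) and was highest in heterozygous 1 (62.7) and wild type 1 (44.6).

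Beside this, the median of 9 oligodendrocyte markers, as a deviation from each gene's mean over the 6 brains on the log2 scale, was 0.06 in heterozygous 1 and 0.09 in wild type 1 and between -0.07 and 0.03 in the others. The median of 10 astrocyte markers was 0.07 and 0.05 in that pair and between -0.08 and 0.03 in the others. Other lists were alike in sign within the pair in some cases and not in others. In heterozygous 1 and wild type 1, the median of striatal projection neuron markers was 0.04 and 0.09. That of GABAergic interneuron markers was 0.06 and 0.01, and that of forebrain excitatory neuron markers -0.03 and 0.07. The microglial median was 0.05 and -0.08, and the endothelial median -0.11 and 0.03. The pan-neuronal median was 0.11 in heterozygous 1 and -0.03 in wild type 1, and between -0.05 and 0.03 in the others. The cerebellar neuron median was 0.10 in heterozygous 1 and 0.0038 in wild type 1, and between -0.10 and 0.03 in the others. The pituitary median was 4.02 in wild type 1 but -1.31 in heterozygous 1. The median of the 6 metabotropic genes, computed likewise, was -0.13 in heterozygous 1, -0.12 in wild type 1 and between 0.04 and 0.07 in the remaining brains. The part of the markers in these values was not tested.

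**Figure D2:**
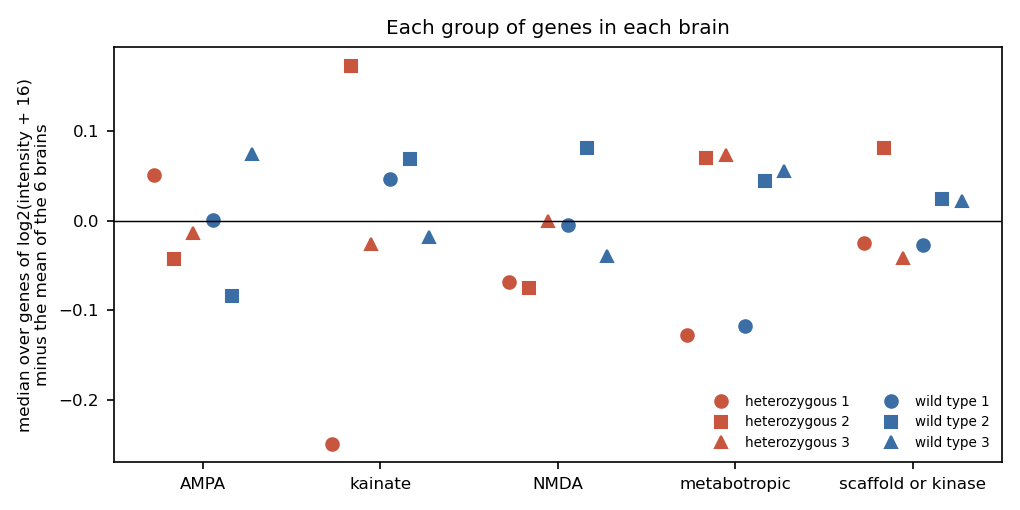
Median over the genes of each group of log2(intensity + 16) minus the gene's mean over the 6 brains, for each brain (red: heterozygous, blue: wild type; symbols: brain number). The metabotropic genes were lowest in heterozygous 1 and wild type 1, and the medians of the genotypes overlapped in each of the 5 groups.

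Summed intensities, which weigh each gene by its brightness, did not overlap in 2 of these groups. For single probe sets, genotypes did not overlap at 10.2% of all tested, and no such share was computed for sums. The sum of the 4 NMDA genes was 596 to 617 in heterozygous and 626 to 668 in wild-type brains. That of the 16 scaffold and kinase genes, among them Camk2a, was 12007 to 13318 against 11639 to 11760. The NMDA sums overlapped between genotypes once Grin2b was left out, and the scaffold and kinase sums once Camk2a was left out. Each of these genes had the largest log2 difference of its group in these same data. The overlap without it therefore carries little information. Neither sum was tested.

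The 16 measured scaffold and kinase genes split evenly in sign, 8 higher and 8 lower, with a median of 0.0075. They hold 42 of the 76 tested probe sets, of which 5 had an unadjusted limma p below 0.05, or 11.9%, against 4.83% of all probe sets. Among the Dlg scaffolds, Dlg1 (SAP97) lay at 0.04 (SE 0.08), Dlg2 (PSD-93) at -0.08 (SE 0.10) and Dlg3 (SAP102) at 0.02 (SE 0.09) by their brightest probe sets. Dlg4, which encodes PSD-95, measured 270, 379 and 317 in heterozygous and 264, 344 and 359 in wild-type brains at its brightest probe set (-0.0028, SE 0.14).

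A dimmer Dlg4 probe set, 1419581_at, measured 139, 146 and 164 against 154, 208 and 226, a log2 difference of -0.34 (SE 0.14, unadjusted limma p = 0.0374, adjusted p = 0.956, exact permutation p = 0.2). Wild type 1 lay within the heterozygous range. The remaining one, 1460261_at, lay at 0.29 (SE 0.18), so the 3 probe sets of Dlg4 spanned both directions.

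Dlgap1 (SAPAP1 or GKAP), the link between PSD-95 and Shank, was lower at its brightest and next brightest probe sets without passing the adjusted test. At 1436076_at it measured 808, 915 and 872 in heterozygous and 1160, 1034 and 1052 in wild-type brains, with no overlap. The log2 difference was -0.32 (SE 0.09, 95% interval -0.51 to -0.13, unadjusted limma p = 0.00374, adjusted p = 0.956), with p = 0.1 in an exact permutation test, its lower limit here. At 1453027_at the values were 933, 921 and 881 against 1098, 1036 and 983, again without overlap (-0.18, SE 0.08, unadjusted limma p = 0.0444, adjusted p = 0.956, exact permutation p = 0.1).

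The other 4 tested Dlgap1 probe sets lay between -0.08 and 0.39. The brightest of them, 1429105_at, lay at 0.06 (SE 0.09), with overlapping genotypes. Its mean signal was 755, against 966 at 1436076_at and 973 at 1453027_at. The dimmest, 1443508_at, had its 3 heterozygous values above its 3 wild-type values. Averaged over all 6 probe sets, the log2 difference of Dlgap1 was 0.01. The value at 1436076_at lay between -0.36 and -0.27 in the 15 alternatives tried, each with an unadjusted limma p below 0.05 and with limma adjusted p of at least 0.571. The value at 1453027_at held an unadjusted limma p below 0.05 in 8 of 16 alternatives and ranged from -0.22 to 0.01. Dlgap2, Dlgap3 and Dlgap4 lay at 0.10 (SE 0.17), -0.05 (SE 0.13) and 0.03 (SE 0.09).

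Shank3, which stacks into the deeper layer of the postsynaptic density, lies on chromosome 15, as does Pphln1. It measured 719, 793 and 697 in heterozygous and 748, 727 and 783 in wild-type brains (-0.03, SE 0.09, 95% interval -0.22 to 0.16). All wild-type values lay within the heterozygous range. Shank1 was too dim to be tested, at 7.02 to 21.5 over the 6 brains at 1444240_at.

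Homer1 is spliced into long forms that crosslink Shank and metabotropic receptors and a short form induced by activity. Its probe sets differed in sign. At the brightest, 1437363_at, it measured 1043, 1270 and 1045 in heterozygous and 809, 1200 and 997 in wild-type brains (0.17, SE 0.13). At the next brightest, 1436387_at, it measured 625, 721 and 679 against 688, 943 and 822 (-0.26, SE 0.11, unadjusted limma p = 0.044, adjusted p = 0.956, exact permutation p = 0.2). Genotypes overlapped at both.

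The gap between these log2 differences was 0.43, and the log2 ratio of the Homer1 probe sets did not overlap between genotypes (exact permutation p = 0.1, the smallest possible). The sources used do not say which transcript each Homer1 probe set measures. The other tested Homer1 probe sets lay at 0.08, 0.0018 and -0.07. Homer2 was lower in sign at each of its 3 tested probe sets, between -0.16 and -0.08, and Homer3 lay at -0.02 (SE 0.11).

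Camk2a, the forebrain subunit of kinase II, had the largest difference among the 76 probe sets. At its brightest probe set, 1457311_at, it measured 2040, 2810 and 2668 in heterozygous and 1898, 1688 and 1772 in wild-type brains. All heterozygous brains were above all wild-type brains, although heterozygous 1 exceeded wild type 1 by little. The log2 difference was 0.47 (SE 0.12, 95% interval 0.22 to 0.73), a ratio of 1.16 to 1.66 on that scale at the interval's ends, with an unadjusted limma p of 0.00186 and a limma adjusted p of 0.956. Without heterozygous 1 it was 0.61 (limma adjusted p = 0.0796), and over 16 alternatives the limma adjusted p was at least 0.0796.

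At the next brightest probe set, 1437125_at, Camk2a measured 731, 760 and 728 against 728, 557 and 637, higher in every heterozygous brain by a narrow margin over wild type 1 (0.21, SE 0.10). The 3 dimmer tested probe sets lay at 0.24 (SE 0.19), -0.07 (SE 0.13) and -0.12 (SE 0.25), with overlapping genotypes. Averaged over all 5, the log2 difference of Camk2a was 0.15, and its unadjusted limma p was 0.177.

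Markers of forebrain excitatory neurons, in which Camk2a is most abundant, were mostly lower in sign. Of 13 measured markers, 4 were higher and 9 lower in sign, with a summed intensity of 4092 to 4248 in heterozygous and 4225 to 4530 in wild-type brains. At an unadjusted limma p below 0.05 were Rorb, higher, and Slc17a7 and Neurod6, lower, 3 of 13 or 23.1% against 4.38% of all genes, and none of the 13 passed the adjusted test. Their part in the value of Camk2a was not tested.

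The other subunits of the kinase showed smaller differences. Camk2d measured 239, 281.5 and 281.2 in heterozygous and 311, 308 and 298 in wild-type brains at 1422659_at, lower in each heterozygous brain (-0.19, SE 0.10, limma adjusted p = 0.956). Its other 4 tested probe sets lay between 0.07 and 0.21. At one of them, 1460630_at, each heterozygous brain was above each wild-type brain, opposite to the brightest. Camk2b measured 1202, 1133 and 1093 against 1177, 1045 and 1082 (0.05, SE 0.08), and Camk2g lay at 0.06 (SE 0.10) and 0.01 (SE 0.09).

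**Figure D3:**
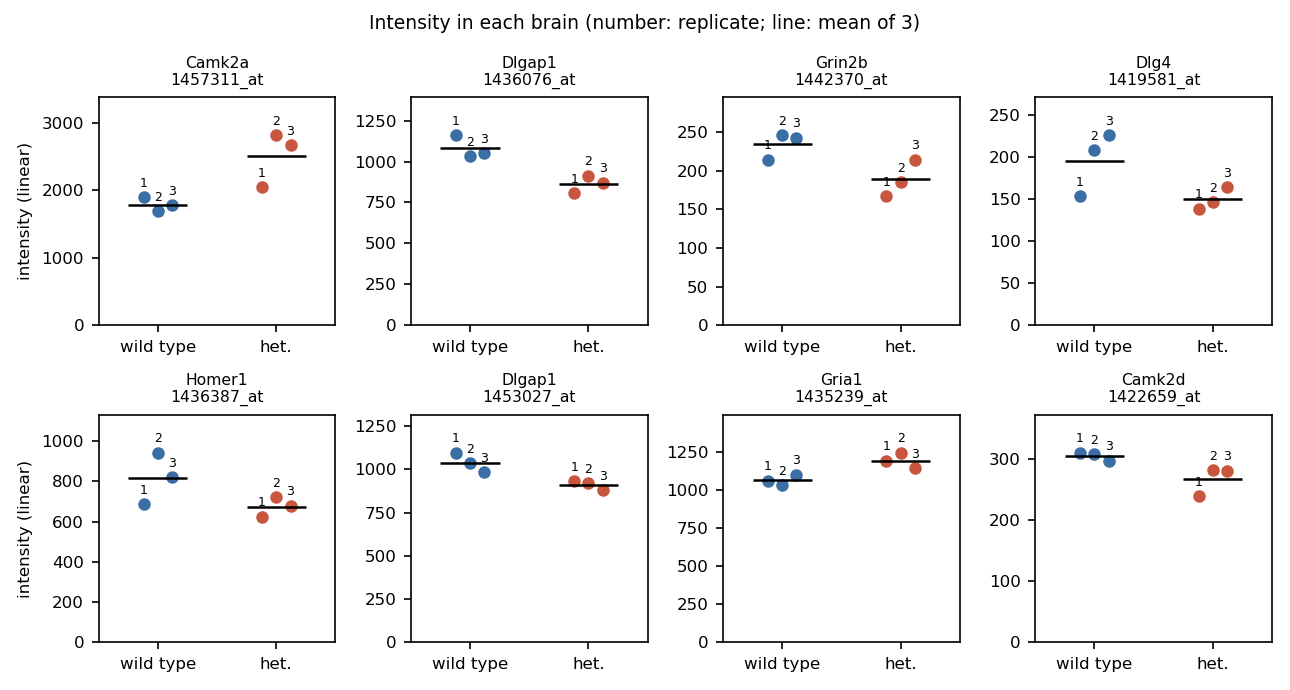
Linear intensity in each brain for the 6 probe sets at an unadjusted limma p below 0.05 and for the brightest probe sets of Gria1 and Camk2d. Points are brains numbered by replicate (blue: wild type, red: heterozygous), and lines are means of 3. Heterozygous and wild-type brains do not overlap for Camk2a, both Dlgap1 probe sets, Gria1 and Camk2d, and overlap for Grin2b, Dlg4 and Homer1.

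Genotypes did not overlap at 8 of the 76 probe sets, or 10.5%, against 10.2% of all probe sets tested. Of these 8, 5 were higher in heterozygous brains, or 6.58% against 5.43% of all, and 3 were lower, or 3.95% against 4.81%. They belong to 4 genes (Gria1, Dlgap1, Camk2a and Camk2d), of which Dlgap1 and Camk2d contributed probe sets in both directions.

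Probe sets of 1 gene often disagreed in sign. Of the 36 genes, 20 had at least 2 tested probe sets. The brightest and the next brightest had the same sign in 11 of these 20 genes and opposite signs in 9. All tested probe sets agreed in sign in 6 genes, namely Grik2, Grid1, Dlg2, Dlgap4, Homer2 and Camk2g. The log2 ratio of the brightest to the next brightest probe set did not overlap between genotypes in 3 of the 20, which were Homer1, Dlg4 and Dlgap1. Over all 6176 genes with at least 2 tested probe sets it was 10.1%, and the difference between these shares was not tested.

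**Figure D4:**
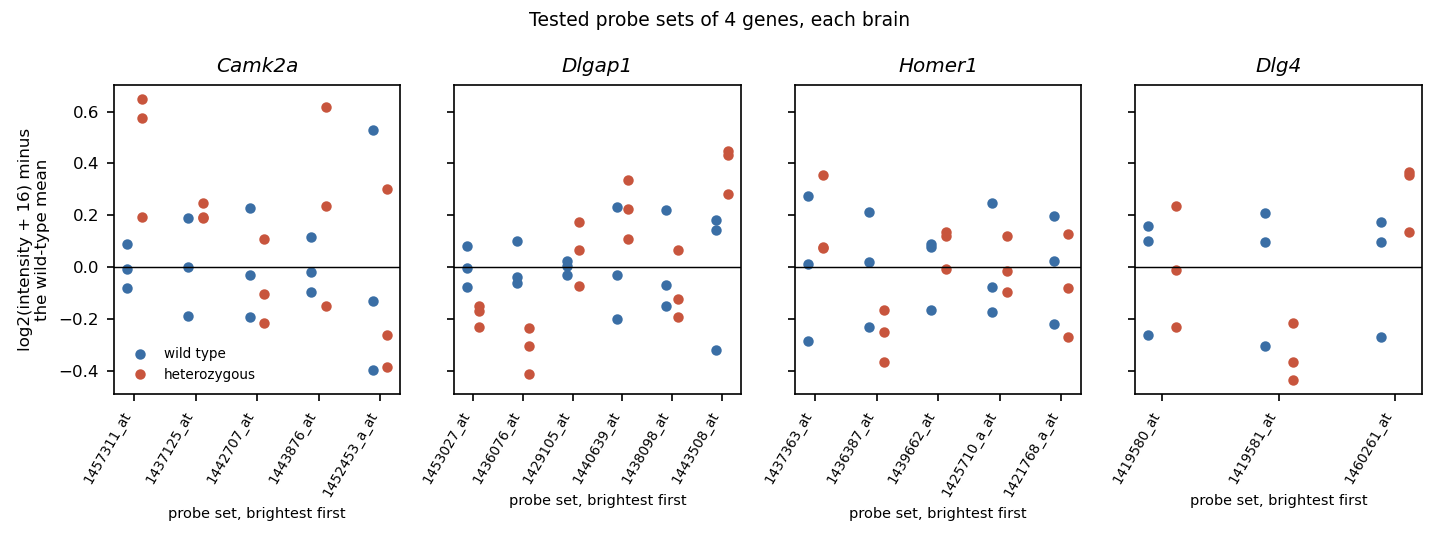
Tested probe sets of Camk2a, Dlgap1, Homer1 and Dlg4 in each brain, as log2(intensity + 16) minus the wild-type mean, ordered by brightness (blue: wild type, red: heterozygous). The heterozygous mean of Camk2a lies above 0 at its 2 brightest probe sets, that of Dlgap1 below 0 at its 2 brightest, and those of Homer1 and Dlg4 on either side of 0 by probe set.

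Genes that work with these receptors and scaffolds were read from further lists, again by the brightest probe set, and none passed the adjusted test. Of 16 auxiliary subunits of AMPA and kainate receptors, 8 were higher and 8 lower in sign, with a median of 0.0031. At the ends, Cacng7, a regulatory protein of AMPA receptors, measured 67.9, 73.7 and 71.5 in heterozygous and 143, 93.2 and 101 in wild-type brains (-0.54, SE 0.16, limma adjusted p = 0.956), while its dim second probe set lay at 0.28 (SE 0.23). Shisa7 measured 66.6, 82.1 and 78.5 against 55.2, 60.002 and 48.0 (0.38, SE 0.15, limma adjusted p = 0.956). Neither overlapped between genotypes, 2 of the 16 or 12.5%, against 10.2% of all probe sets tested. With Shisa6, at -0.42 (SE 0.16), they are the 3 of 16 at an unadjusted limma p below 0.05, or 18.8% against 4.38% of all genes. The other tested Shisa6 probe set lay at 0.13 (SE 0.15).

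Of 30 measured genes of other postsynaptic density proteins, 12 were higher and 18 lower in sign (median -0.04), and 2, Nrgn and Cnksr2, had an unadjusted limma p below 0.05, both lower in sign, or 6.67%, near the 4.38% of all genes. Nrgn (neurogranin), which binds calmodulin in spines, measured 954, 932 and 995 in heterozygous and 1165, 1208 and 1368 in wild-type brains (-0.37, SE 0.09, limma adjusted p = 0.956). Grip2, which binds the tails of AMPA receptor subunits, measured 181, 240.0 and 223 against 191, 185 and 182 (0.18, SE 0.12), with heterozygous 1 below the wild-type range.

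Among 14 genes of glutamate transport and metabolism, 7 were higher and 7 lower in sign (median -0.0029). Slc17a7, a vesicular glutamate transporter, measured 555, 544 and 501 against 640, 620 and 674 (-0.27, SE 0.09, limma adjusted p = 0.956), without overlap. It is also among the 13 markers listed for forebrain excitatory neurons. Slc1a3, the astrocyte transporter GLAST, lay at -0.27 (SE 0.12), and these are the 2 of 14 at an unadjusted limma p below 0.05, or 14.3% against 4.38%. The other tested probe sets of Slc1a3 lay between -0.14 and 0.08. Got2, a mitochondrial aminotransferase, measured 3243, 2797 and 2773 against 2668, 2485 and 2603 (0.18, SE 0.09), also without overlap. Of the receptor genes outside the 40, Grin3b alone was measured, at 7.64 to 33.7 over the 6 brains (-0.02, SE 0.32).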

How the data were processed

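Total RNA of 6 whole brains was labelled from an oligo(dT) primer and hybridised to 1 array each, per the labels' protocols. The authors deposited linear intensities per probe set; the sources used do not name the summarising software. Per array, the central 96% of values averaged 150.0. Of 45101 probe sets, 64 manufacturer controls were left out. The platform annotation gave 1 gene for 34945 of the other 45037, several for 932 and none named here for 9160, and symbols were updated through Entrez identifiers (34741 matched) with a RefSeq table of GRCm38.p6.

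Intensities were taken as log2(value + 16). The dimmest 40% by mean log2 value (up to a signal of 18.4) were removed, leaving 27022. Genotypes were compared with limma 3.58.1 in R 4.3.3 (lmFit, eBayes with trend, no covariate, two-sided, Benjamini-Hochberg over all 27022, threshold 0.05). The fit was also run on simulated data with no change or with planted changes larger than any member difference here. Those runs do not show how well smaller differences are found. Exact permutation tests were two-sided and used all 6 arrays, and 3 against 3 cannot go below 0.1. The number of arrays limits the precision. That the brains are of separate animals follows from the labels.

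The brightest tested probe set stood for its gene. Values in every brain are given for probe sets at an unadjusted p below 0.05, for the highest 2 and lowest 2 genes by moderated t of each group, for Grid1, and for the highest and lowest gene of each related list; others were added after their values were seen. The members and lists were chosen with earlier results of these data known. No p was computed over a list.

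The alternatives comprised no dim filter or one at the 60th percentile, pseudocounts of 1 and 64, median centring, quantile normalization, eBayes without trend or robust, a replicate block, each array left out, and the mean of a gene's probe sets.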

Additional observations from a re-analysis of the deposited data

How the results depend on the processing

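No member probe set passed the adjusted threshold under any of the 15 alternative fits. Over all probe sets, 4 calls became 1 without the dim filter and 1 without the trend, and 1 to 14 with an array left out. The 6 member probe sets at an unadjusted p below 0.05 ranged from 2 to 7, and the 8 without overlap from 12 to 20, with an array left out; fewer brains overlap less by construction. The 35 intervals excluding a 1.5-fold change, a count added after seeing the data, ranged from 30 to 34 with an array left out. With the mean of a gene's probe sets, the median became 0.046 for AMPA, 0.054 for NMDA and 0.032 for all measured members, and Dlgap1 turned to 0.013. The NMDA median was 0.059 without the dim filter. The median of all members ranged from -0.066 to 0.035 with an array left out. Of 36 genes, 13 kept their sign in every alternative and 23 changed it in at least 1. The same number on a heterozygous and a wild-type array is not known to pair them: deviations of same-numbered arrays correlated at 0.08, 0.20 and -0.02 over all tested probe sets and at 0.32, 0.29 and 0.14 over the 76 of members, where every pair of different numbers was below 0. The deviations were taken from the genotype mean and sum to 0. Positive values for same-numbered arrays therefore push the other pairs below 0 on average by construction. With the replicate block, 5 probe sets were called, none a member, and 8 member probe sets had an unadjusted p below 0.05, or 10.5%, as the share of all probe sets went from 4.83% to 7.01%.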
